A study of Mus musculus with 79 samples.

Results

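The 9 transcripts described here encode pore-forming subunits of Kv3 channels (Kcnc1, Kcnc2 and Kcnc4), pore-forming subunits of Kv1 channels (Kcna1, Kcna2, Kcna3 and Kcna4) and the Kv beta subunits Kcnab2 and Kcnab3. They were taken by gene symbol from a table of 38879 genes. All 9 were found, and all 9 passed the filter on low values in every comparison below. The table came from 79 libraries of 130 neurons each, cut by laser from frozen sections of mouse medial prefrontal cortex after RNAscope labelling of 1 cell type. The 20 mice were male C57Bl/6J. The 10 UCMS mice (unpredictable chronic mild stress) lived singly and met mild stressors such as a forced bath, predator odor, wet bedding, a tilted cage and restraint over 5 weeks, with behavioural tests toward the end. The 10 Control mice lived in groups with littermates, so housing and stress cannot be told apart. Each mouse gave a library of parvalbumin (PV), pyramidal (PYR), somatostatin (SST) and vasoactive intestinal peptide (VIP) neurons, apart from UCMS mouse U609, whose PV neurons were not analysed here. The UCMS groups therefore hold 9 PV, 10 PYR, 10 SST and 10 VIP libraries, and each Control group holds 10. The mouse was the replicate. A library is a pool of cells, in which fewer cells of a type and less RNA per cell cannot be told apart.

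Kv3 channels open at strongly depolarized voltages and close quickly, which lets a neuron repolarize fast enough to fire at high rates. In cortex they are best known from fast-spiking PV basket cells. Kv1 channels open near spike threshold, lie along axons and at the axon initial segment, and limit excitability and transmitter release. Most subunits of both families carry sustained, delayed-rectifier currents, whereas the products of Kcnc4 (Kv3.4) and Kcna4 (Kv1.4) inactivate rapidly and give A-type currents. Kv beta proteins bind Kv1 subunits inside the cell and affect their trafficking and inactivation.

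On the GRCm38 build, the Kv3 genes lie at chr7:46396497-46438704 (Kcnc1, plus strand), chr10:112271121-112467024 (Kcnc2, plus) and chr3:107438303-107459552 (Kcnc4, minus). The Kv1 genes Kcna3 at chr3:107036169-107038070 (plus) and Kcna2 at chr3:107101146-107115005 (plus) lie near Kcnc4 on the same chromosome. Kcna1 lies at chr6:126640397-126646384 (minus) and Kcna4 at chr2:107290639-107298502 (plus). The beta subunit genes lie at chr4:152390742-152477871 (Kcnab2, minus) and chr11:69326258-69333042 (Kcnab3, plus). Exons of Kcnab3 overlap those of the antisense gene Kcnab3os, and exons of Kcnab2 overlap Gm16334 on the same strand. Whether counting used strand is not given in the sources used here, so the levels of these 2 members may include reads of their partners. At most 1.33% of the 50-base stretches of a member's exons occurred in another gene, and 0 occurred in another member.

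Promoters of 3 members are shown because they belong to transcripts at opposite ends of the PV levels: Kcnc1 and Kcnc2 had the highest levels per exon length in PV neurons and Kcna4 the lowest. Each line gives the 250 bases before a RefSeq transcription start (GRCm38.p6), 5′ to 3′. They lie at chr7:46396218-46396467 for Kcnc1, chr10:112270871-112271120 for Kcnc2 and chr2:107290339-107290588 for Kcna4, all on the plus strand. Kcnc2 had 4 listed starts, and only the window before the start nearest that of the annotated gene was examined. Capitals mark matches on either strand to TGACG, a cyclic AMP response element half-site, or to GGGCGG, a GC box.

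Kcnc1: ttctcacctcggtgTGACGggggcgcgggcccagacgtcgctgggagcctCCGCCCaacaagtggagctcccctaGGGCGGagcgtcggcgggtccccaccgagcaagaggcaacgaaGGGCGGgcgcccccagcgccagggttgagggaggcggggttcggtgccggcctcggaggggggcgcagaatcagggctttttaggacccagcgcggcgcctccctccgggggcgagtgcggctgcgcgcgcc

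Kcnc2: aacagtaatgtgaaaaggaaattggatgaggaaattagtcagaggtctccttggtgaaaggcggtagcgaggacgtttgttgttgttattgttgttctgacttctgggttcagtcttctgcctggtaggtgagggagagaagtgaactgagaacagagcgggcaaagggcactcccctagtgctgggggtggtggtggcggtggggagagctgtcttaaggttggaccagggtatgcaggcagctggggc

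Kcna4: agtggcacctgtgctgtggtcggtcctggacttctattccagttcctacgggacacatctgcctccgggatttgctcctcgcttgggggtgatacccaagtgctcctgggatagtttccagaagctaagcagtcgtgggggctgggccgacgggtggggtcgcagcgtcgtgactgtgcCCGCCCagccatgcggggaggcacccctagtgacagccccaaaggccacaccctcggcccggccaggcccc

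The Kcnc1 window was 74.4% G and C, with 30 CpG dinucleotides, 1 half-site and 3 GC boxes. The Kcnc2 window was 52.8% G and C, with 5 CpG dinucleotides and 0 matches to either motif. The Kcna4 window was 65.2% G and C, with 14 CpG dinucleotides and 1 GC box. Among 32851 promoter windows of this length, 17.8% held the half-site and 32.7% the GC box, and the median G and C content was 52.4%. The TATA box motif TATAAA had 0 matches in the 3 windows and 12.4% of all windows held it. CANNTG, an E box, had 1 match in the Kcnc1 window, 1 in the Kcnc2 window and 3 in the Kcna4 window, and 66.2% of all windows held it; these matches are not in capitals. A match is a description of letters and not a bound site. The pair of transcripts that were highest in PV neurons thus had windows that differed in composition at the starts shown.

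Libraries held 3642579 to 13529571 reads and 9033 to 20307 detected genes, and all levels below are normalized counts. The summed level of 5 markers each averaged 4538 in PV libraries of UCMS and 4540.2 of Control mice for the PV list, against 67.2 to 210.4 in the other groups. It averaged 29214 and 29729 in SST libraries for the SST list, against 774 to 3024 elsewhere, and 13371 and 14197 in VIP libraries for the VIP list, against 492 to 1545 elsewhere. Of the 20 markers of the 4 types, 18 had their highest mean in the labelled type in both arms. Among PV markers Pvalb averaged 874 ± 362 in PV libraries of UCMS mice and 816 ± 422 in those of Control mice, against 7.09 to 43.1 in the other groups. The markers that did not were Pthlh, a PV marker with a median of 0 in PV libraries and means of 83.5 in VIP libraries of UCMS and 58.4 of Control mice, and the VIP marker Cck, which in Control mice averaged 1269 in VIP and 1414 in PYR libraries. The summed level of Gad1, Gad2 and Slc32a1 averaged 283 in PYR libraries of UCMS and 388 of Control mice, against 5965 to 14946 in the interneuron groups. All 5 markers of pyramidal neurons were also found in the interneuron libraries. They summed to 3445 to 6826 in PV libraries of UCMS mice and 3876 to 6719 in those of Control mice, against 21237 to 28365 and 19953 to 30187 in the PYR libraries of these arms, and none had a median of 0. In SST libraries they averaged 7072 in UCMS and 6699 in Control mice, and in VIP libraries 11779 and 10932. The part of such RNA in the levels below was not tested.

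PV neurons had the highest levels of 6 of the 9 transcripts and the lowest mean levels of the 2 that encode rapidly inactivating subunits. Against the mean of the other 3 types, Kcnc1, Kcnc2, Kcna1, Kcna2, Kcnab2 and Kcnab3 were higher in PV neurons and Kcnc4 and Kcna4 were lower, in UCMS and in Control mice. Thus 8 of 9 members were called in each arm (limma with the mouse as a block, Benjamini-Hochberg adjusted p under 0.05 over all genes), where 11% of 17638 genes in UCMS and 7.35% of 17498 genes in Control mice were called. The 6 calls higher in PV neurons stand beside 4.46% and 3.65% of all genes called higher in UCMS and Control mice, and the 2 lower beside 6.57% and 3.7%. The arms share no mouse. The median log2 difference of the 9 members was 1.56 in UCMS and 1.41 in Control mice, beside -0.18 and -0.08 over all genes tested. Log2 differences here are differences between group means of log2(normalized count + 4). The pseudocount shrinks differences between low values, whereas a library near 0 lowers its group's mean on this scale, so for the lower members a log2 difference can be smaller or larger than the log2 ratio of mean levels.

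Taken pair by pair, PV neurons differed from PYR neurons in 7 of 9 members in UCMS and 7 in Control mice, beside 11.3% and 8.32% of all genes. They differed from SST neurons in 7 and 6 members, beside 5.24% and 3.68% of all genes, and from VIP neurons in 7 and 7, beside 11% and 6.83%. Among the other types the counts were lower: SST against PYR neurons called 5 members in UCMS and 4 in Control mice, beside 6.26% and 4.53% of all genes. SST against VIP neurons called 3 and 3, beside 4.39% and 2.93%, and VIP against PYR neurons 2 and 3, beside 5.32% and 4.12%. Over the 6 pairs and 9 members, 31 of 54 differences were called in UCMS and 30 in Control mice, 28 of them in both arms and in the same direction. Some of these calls were lost when 1 mouse was left out. Against VIP neurons, SST neurons lost the Kcnc4 call of Control mice without any one of 7 mice (log2 difference 1.44 to 2.43 over the fits, largest adjusted p 0.244). They lost the Kcna3 call of UCMS mice without any one of 5 (1.42 to 1.67, largest adjusted p 0.0846). The lower Kcnc4 level of VIP than PYR neurons in Control mice was not called without mouse U6 or U10 (largest adjusted p 0.105). Calls were gained for Kcna4 in SST against VIP neurons of Control mice without mouse U6 (adjusted p = 0.0340) and for Kcnab3 in VIP against PYR neurons of UCMS mice without mouse U606 (adjusted p = 0.0196).

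**Figure D1:**
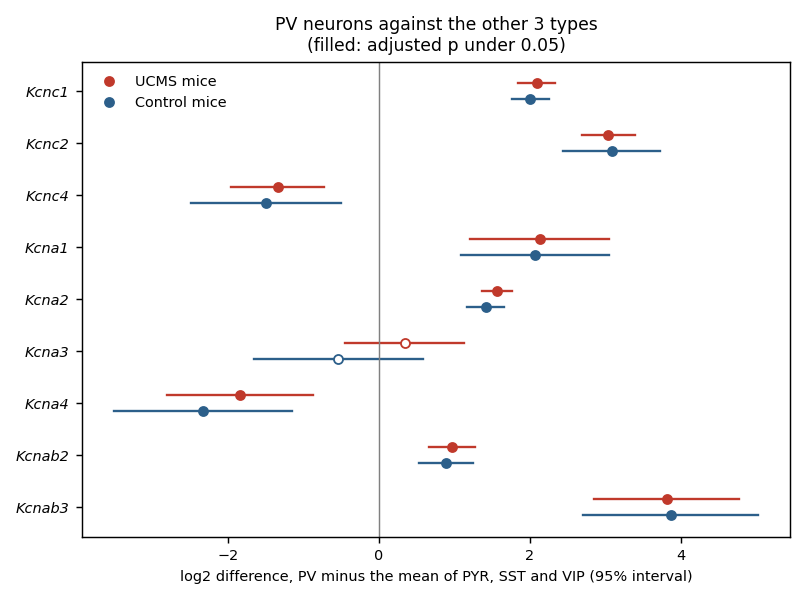
Log2 difference between PV neurons and the mean of PYR, SST and VIP neurons for each member (x axis), with 95% intervals, in UCMS and Control mice. Filled points have an adjusted p under 0.05: Kcnc1, Kcnc2, Kcna1, Kcna2, Kcnab2 and Kcnab3 lie right of 0 and Kcnc4 and Kcna4 left of it in both arms, and Kcna3 is open in both.

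Kcnc1 encodes Kv3.1, a subunit closely tied to fast spiking. Its lowest, median and highest levels in PV neurons were 5212, 7311 and 9256 in UCMS mice and 5965, 7351 and 11148 in Control mice. Every PV library exceeded every library of the other types in its arm, where the highest value was 3948 in UCMS and 4701 in Control mice, both in VIP neurons. The log2 difference was 2.08 ± 0.12 (SE) in UCMS and 2.00 ± 0.12 in Control mice (limma, adjusted p = 1.33e-33 and 1.47e-36). VIP neurons averaged 2714 ± 709 in UCMS and 3311 ± 937 in Control mice (SD), and SST neurons 2120.3 ± 346 and 2586 ± 643. PYR neurons were lowest, at 963 ± 287 in UCMS and 896 ± 333 in Control mice, and did not overlap any interneuron type. SST and VIP neurons were the neighbours in this order that were not called apart, with SST minus VIP at -0.33 (-0.61 to -0.05, 95% interval) in UCMS and -0.34 (-0.64 to -0.04) in Control mice.

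Kcnc2 encodes Kv3.2, which is also found in SST interneurons. Its lowest, median and highest levels in PV neurons were 3381, 5627 and 7387 in UCMS mice and 3708, 6060.1 and 7248 in Control mice. In SST neurons they were 2276, 2375 and 3141 in UCMS and 1127, 2566 and 3235 in Control mice, so all SST libraries stood below all PV libraries of their arm. VIP neurons averaged 593 ± 255 in UCMS and 861 ± 522 in Control mice, and PYR neurons 286 ± 177 and 219 ± 138. The order PV, SST, VIP and PYR was the same in both arms, and each neighbouring pair was called apart, with the exception of PV against SST in Control mice. There the difference was 1.27 with an adjusted p of 0.0670 by limma, which passed without mouse U10 or mouse U2 (smallest adjusted p 0.000521). In UCMS mice it was 1.19 (adjusted p = 1.16e-05). Against PYR neurons, PV neurons were higher by 4.55 ± 0.21 in UCMS and 5.05 ± 0.39 in Control mice.

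The share of the PV level found in another type can be set beside that of Pvalb and, for PYR libraries, of Gad1, Gad2 and Slc32a1. Pvalb in SST libraries stood at 4.92% of its PV mean in UCMS and 4.65% in Control mice, and Kcnc2 at 43.4% and 42.8%. In PYR libraries Pvalb stood at 1.10% and 0.870%, and Gad1 at 1.23% and 2.05%. Gad2 stood there at 3.63% in UCMS and 4.95% in Control mice, and Slc32a1 at 2.997% and 2.73%. Kcnc2 stood at 4.88% and 3.88%, above Gad2 in UCMS and below it in Control mice. Kcnc1 stood above all of these, at 13.2% and 11.6%.

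**Figure D2:**
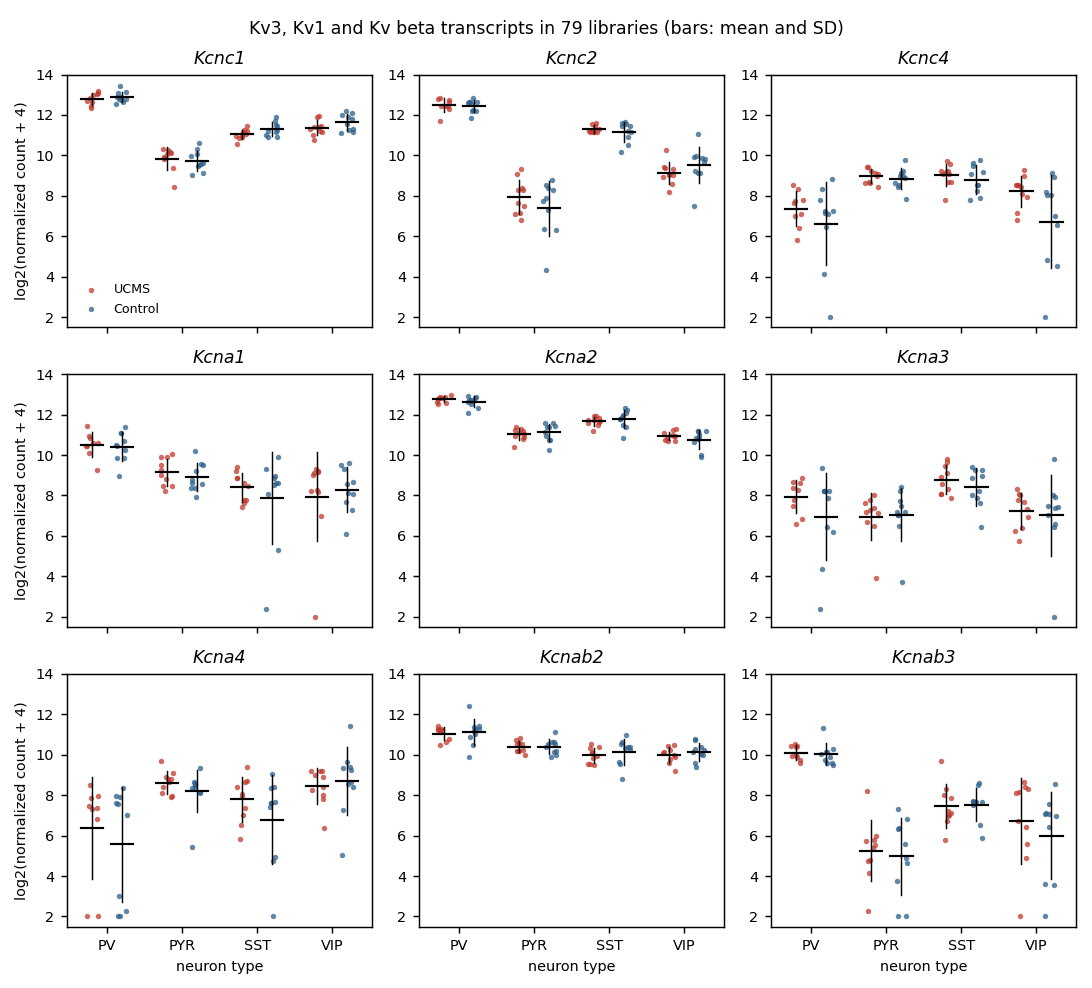
Level of each member in every library (y axis, log2(normalized count + 4)) by neuron type, with UCMS libraries left of Control libraries in each pair and black bars for the mean and SD. A library at 0 lies at 2; PV groups are highest for Kcnc1, Kcnc2, Kcna1, Kcna2, Kcnab2 and Kcnab3.

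Kcna2 encodes Kv1.2, a major axonal Kv1 subunit. The lowest, median and highest levels of PV libraries were 5864, 7143 and 7937 in UCMS mice and 4302, 6658 and 7739 in Control mice. SST neurons followed at 3298 ± 464 in UCMS and 3677 ± 1009 in Control mice, and the highest SST library of Control mice, at 5192, lay within the PV range. PYR neurons averaged 2120.2 ± 399 in UCMS and 2306 ± 625.1 in Control mice, and VIP neurons 1987 ± 296 and 1802 ± 498. PV neurons exceeded the other types by 1.56 ± 0.10 in UCMS and 1.41 ± 0.12 in Control mice (limma, adjusted p = 5.08e-32 and 1.81e-19). SST neurons were called above PYR neurons (0.65 in UCMS and 0.67 in Control mice) and above VIP neurons (0.73 and 1.03). VIP and PYR neurons were not called apart, with VIP minus PYR at -0.08 (-0.31 to 0.15) in UCMS and -0.36 (-0.66 to -0.06) in Control mice.

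Kcna1 encodes Kv1.1, a common partner of Kv1.2 in axons. In PV neurons its lowest, median and highest levels were 600.1, 1527 and 2795 in UCMS mice and 504, 1415 and 2642 in Control mice. Means of the other types were 373 to 624 in UCMS and 388 to 532 in Control mice, and their ranges overlapped that of PV neurons. Within mice, Kcna1 was higher in PV neurons than the mean of the other types in 9 of 9 UCMS and 10 of 10 Control mice. The log2 difference was 2.12 ± 0.45 in UCMS and 2.06 ± 0.48 in Control mice (limma, adjusted p = 0.00136 and 0.00402). PV neurons were called above SST and VIP neurons in both arms, and the call against VIP neurons in Control mice was lost without mouse U2 or mouse U4 (largest adjusted p 0.0844). Against PYR neurons the difference missed the threshold, at 1.47 (0.36 to 2.58) in UCMS and 1.51 (0.31 to 2.71) in Control mice. It passed without mouse U601 in UCMS mice (adjusted p = 7.14e-06) and without mouse U6 in Control mice (adjusted p = 0.0121).

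Kcnab3 encodes Kv beta 3 and had the largest PV difference of the 9 transcripts. PV libraries had lowest, median and highest levels of 770.1, 1007 and 1488 in UCMS mice and 716, 986 and 2583 in Control mice. In PYR neurons they were 0.757, 39.9 and 289.7 in UCMS and 0, 34.6 and 154 in Control mice, where 2 libraries were at 0, a count that allows up to 3 reads. SST neurons averaged 231 ± 227 in UCMS and 205 ± 99.9 in Control mice, and 1 SST library of UCMS mice, at 837, lay within the PV range. VIP neurons averaged 185 ± 148 in UCMS and 118 ± 111 in Control mice. The log2 difference between PV and the other types was 3.81 ± 0.49 in UCMS and 3.86 ± 0.59 in Control mice (limma, adjusted p = 4.51e-11 and 3.99e-08), and the ratio of mean levels was 7.14 and 8.95. The call against SST neurons in Control mice, at 2.50, was lost without mouse U6 or mouse U7 (largest adjusted p 0.0664). SST neurons were called above PYR neurons, at 2.21 in UCMS and 2.55 in Control mice, and these calls were lost without mouse U602 (adjusted p = 0.0853) and without mouse U2 or U9 (largest adjusted p 0.0692).

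Kcnab2 encodes Kv beta 2, an abundant Kv beta protein of mammalian brain, and differed less between types. Its lowest, median and highest levels in PV neurons were 1429, 2353 and 2765 in UCMS mice and 945, 2378 and 5520.0 in Control mice. Means of the other types were 1041 to 1376 in UCMS and 1187 to 1393 in Control mice. PV neurons were higher by 0.97 ± 0.15 in UCMS and 0.89 ± 0.18 in Control mice (limma, adjusted p = 1.49e-07 and 9e-05), and no pair among PYR, SST and VIP neurons was called. The difference from PYR neurons in Control mice, 0.72, lost its call without mouse U2 or mouse U3 (largest adjusted p 0.133).

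Kcnc4, the A-type member of the Kv3 family, ran the other way. PV neurons had lowest, median and highest levels of 52.0, 199 and 365 in UCMS mice and 0, 143 and 452 in Control mice. In PYR neurons they were 342, 522 and 695 in UCMS and 229, 487 and 865 in Control mice, and in SST neurons 219, 559 and 833 and 215, 447 and 871. The groups overlapped, although most PV libraries lay below most PYR and SST libraries. The PV difference from the other types was -1.34 ± 0.31 in UCMS (limma, adjusted p = 0.000716) and -1.497 ± 0.51 in Control mice (adjusted p = 0.0466). The call in UCMS mice held in 10 of 10 alternative tests. That in Control mice held in 6 of 10, and it was lost when any one of mice U2, U3, U4, U5, U7, U8 and U9 was left out (log2 difference -1.86 to -1.04 over the 10 mice, largest adjusted p 0.228). PV neurons were called below PYR and SST neurons in both arms, in Control mice with calls that were lost without mouse U3 (PYR, adjusted p = 0.0522) and without mouse U3 or U4 (SST, largest adjusted p 0.131). PV and VIP neurons were not called apart, although without mouse U601 they were in UCMS mice (adjusted p = 0.0393).

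Kcna4, the A-type member of the Kv1 family, had the lowest level per exon length in PV neurons. Its lowest, median and highest levels there were 0, 160.2 and 353 in UCMS mice and 0, 158 and 324 in Control mice, with 2 libraries at 0 in each. In PYR neurons they were 236, 414 and 825 in UCMS and 39.02, 346 and 646 in Control mice, and in VIP neurons 79.9, 407 and 591 and 28.7, 505 and 2762. PV neurons were lower than the other types by limma, at -1.84 ± 0.48 in UCMS (adjusted p = 0.00543) and -2.33 ± 0.60 in Control mice (adjusted p = 0.00367). Tests on reads did not call this difference: edgeR gave -1.20 (adjusted p = 0.215) in UCMS and -1.67 (adjusted p = 0.410) in Control mice, and DESeq2 gave -1.20 (adjusted p = 0.0503) and -1.69 (adjusted p = 0.0726). Without the libraries at 0 the difference of means was -0.67 in UCMS and -1.61 in Control mice. The calls below PYR neurons in Control mice were lost without mouse U7 or U9 (largest adjusted p 0.0684) and those below VIP neurons in UCMS mice without mouse U602 or U604 (largest adjusted p 0.0753). SST neurons averaged 275 ± 188 in UCMS and 199 ± 164 in Control mice. PV and SST neurons were not called apart in either arm, nor with any 1 mouse left out. The smallest adjusted p of these limma fits was 0.137 in UCMS and 0.276 in Control mice.

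Kcna3 encodes Kv1.3, known mostly from lymphocytes and also found in neurons. It was the member with no PV difference past the threshold, at 0.34 (-0.45 to 1.13) in UCMS and -0.54 (-1.65 to 0.58) in Control mice. SST neurons had the highest mean, with lowest, median and highest levels of 232, 421 and 899.5 in UCMS and 83.7, 380.5 and 687 in Control mice. PV neurons averaged 274 ± 132 in UCMS and 223 ± 195 in Control mice, PYR neurons 146 ± 70.6 and 164 ± 95.4, and VIP neurons 173 ± 91.3 and 219.5 ± 248. The ranges of all 4 types overlapped. SST neurons were called above the other types in UCMS mice (1.39 ± 0.38, adjusted p = 0.0132 by limma, higher in 10 of 10 mice) and not in Control mice (1.40 ± 0.57, adjusted p = 0.242, higher in 9 of 10 mice). The 3 members that lie near each other on chromosome 3 thus had 3 patterns, with Kcna2 high in PV neurons, Kcnc4 low there and Kcna3 at its highest mean in SST neurons.

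Per kb of merged exon, the 7 pore-forming transcripts together came to 2729.6 ± 305 normalized counts in PV neurons of UCMS mice and 2655 ± 324 in those of Control mice. SST neurons had 1397 ± 181 in UCMS and 1386 ± 175 in Control mice, VIP neurons 879.9 ± 155 and 1016 ± 261, and PYR neurons 753 ± 99.96 and 719 ± 114. The lowest PV library, at 2074, exceeded the highest library of another type, at 1628. In PV neurons Kcnc2 (820.1 ± 171 in UCMS and 790.5 ± 151 in Control mice) and Kcnc1 (770.0 ± 152 and 818 ± 161) stood within their spread of each other, followed by Kcna2 (583 ± 57.4 and 541 ± 91.0). PYR neurons were led by Kcnab2 (247 ± 47.9 and 249.8 ± 68.5) and Kcna2 (178 ± 33.5 and 194 ± 52.5), with Kcnc4 next (139 ± 33.8 and 132 ± 47.5). Kcnc2 led in SST neurons (356 ± 46.8 and 338 ± 101) and Kcnc1 in VIP neurons (287 ± 74.97 and 350.1 ± 99.1).

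**Figure D3:**
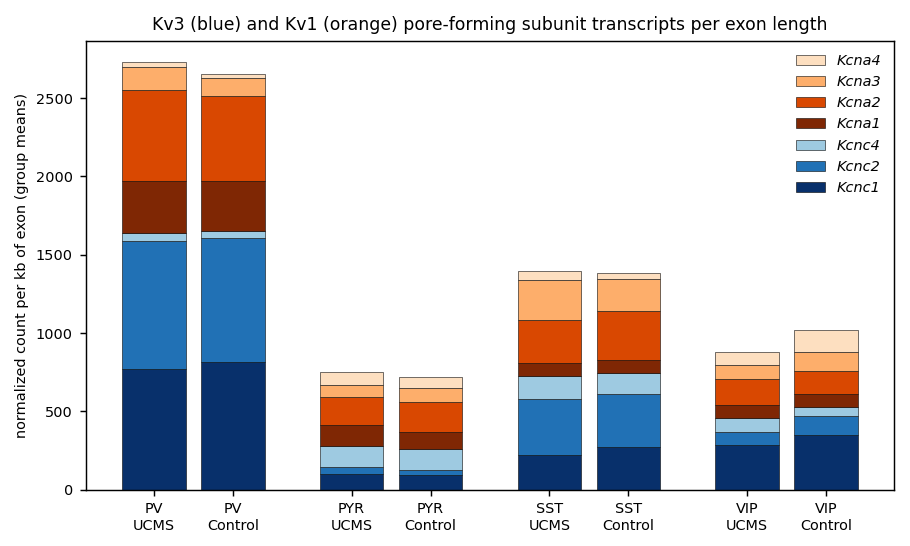
Mean level per kb of exon of the Kv3 transcripts (blue) and Kv1 transcripts (orange), stacked, for each neuron type and arm. The PV stacks are the tallest, at 2729.6 in UCMS and 2655 in Control mice, and their Kcnc4 and Kcna4 bands are thin.

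The makeup of the subunit pool differed between types as well. The A-type pair Kcnc4 and Kcna4 made up 3.17% ± 1.65 (SD) of the per-kb level of the 7 pore-forming transcripts in PV neurons of UCMS mice and 2.85% ± 1.97 in those of Control mice. In PYR neurons the pair made up 30.3% ± 6.44 in UCMS and 28.6% ± 5.82 in Control mice, and no PV library reached the lowest PYR library. SST neurons stood between, at 14.6% ± 3.01 in UCMS and 12.8% ± 5.30 in Control mice, and VIP neurons at 19.4% ± 5.42 and 18.5% ± 11.9. Within the Kv3 family, Kcnc4 made up 3.20% ± 1.88 in PV and 49.98% ± 9.75 in PYR neurons of UCMS mice, and 2.83% ± 2.50 and 51.1% ± 13.0 in those of Control mice. Kcnc1 held most of the Kv3 level in VIP neurons, 62.4% ± 9.74 in UCMS and 66.8% ± 10.6 in Control mice, and less in SST neurons, 30.8% ± 3.70 and 37.0% ± 6.09. Within the Kv1 family, Kcna3 held 37.0% ± 12.5 in SST neurons of UCMS and 30.9% ± 12.2 of Control mice, and 13.1% ± 5.61 and 11.6% ± 9.29 in PV neurons. Of the 2 beta subunits, Kcnab3 made up 50.4% ± 8.37 in PV neurons of UCMS and 47.7% ± 10.3 of Control mice, and 6.70% ± 6.54 and 6.37% ± 5.98 in PYR neurons. These shares are descriptions with no test, and they rest on merged exon lengths.

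**Figure D4:**
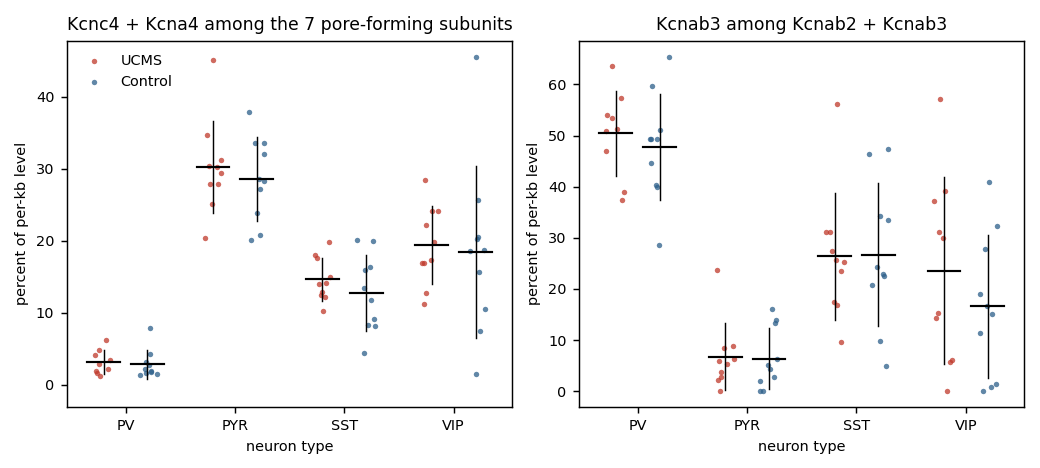
Share of Kcnc4 plus Kcna4 in the per-kb level of the 7 pore-forming transcripts (left) and of Kcnab3 in that of Kcnab2 plus Kcnab3 (right), 1 point per library by neuron type, with mean and SD. PV groups are lowest on the left, at 3.17% in UCMS and 2.85% in Control mice, and highest on the right, at 50.4% and 47.7%.

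PYR neurons were low in 4 members. Against the other types Kcnc1, Kcnc2, Kcna2 and Kcnab3 were lower in both arms and 0 members were higher. This stands beside 4.52% of all genes in UCMS and 3.46% in Control mice called higher, and 3.66% of all genes in UCMS and 2.8% in Control mice were called lower. The log2 differences were -1.91 in UCMS and -2.22 in Control mice for Kcnc1, -3.02 and -3.66 for Kcnc2, -0.77 and -0.61 for Kcna2, and -2.90 and -2.87 for Kcnab3. In Control mice Kcnc4 passed as higher in PYR neurons without mouse U10 (adjusted p = 0.0453), and in UCMS mice Kcna3 passed as lower without mouse U601 or U603 (smallest adjusted p 0.0401). In SST neurons 3 members were called in UCMS mice, beside 3.64% of all genes, and 1 in Control mice, beside 2.49%. Kcnc2 was higher there in both arms, by 1.45 ± 0.17 and 1.38 ± 0.32, Kcna3 was higher in UCMS mice as given above, and Kcnab2 was lower in UCMS mice at -0.51 (limma, adjusted p = 0.0233). The Kcnab2 call was lost without mouse U601, U606, U608 or U610 (largest adjusted p 0.140). In the same arm Kcnc4 passed as higher without mouse U605 (adjusted p = 0.0454) and Kcna1 as lower without mouse U601 (adjusted p = 0.000323).

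In VIP neurons 4 members were called lower in UCMS mice, beside 2.91% of all genes, and 1 in Control mice, beside 1.91%, and 0 were called higher, beside 3.76% and 2.33%. Kcna2 was lower in both arms, at -0.88 in UCMS and -1.09 in Control mice. Kcnc2, Kcna1 and Kcnab2 were lower in UCMS mice, at -1.46, -1.45 and -0.51, and stood at -0.81, -0.77 and -0.40 in Control mice. The Kcna1 call was lost without mouse U602, U603, U604, U607, U608 or U609 (largest adjusted p 0.103), and the Kcnab2 call without mouse U602 or U604 (largest adjusted p 0.115). In Control mice the Kcnc2 and Kcna1 differences passed without mouse U2 (adjusted p = 0.00262) and without mouse U6 (adjusted p = 0.0234). Kcnc4 passed there as lower without mouse U4 (adjusted p = 0.0344), and Kcna4 as higher without mouse U6 (adjusted p = 0.00607). A call in one arm and not in the other does not show that the arms differ.

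UCMS and Control mice were not told apart by any of the 9 transcripts in any neuron type. In PV neurons 0 members and 0% of 16847 genes were called (limma), and 0 members, beside 3.74% of all genes, had an unadjusted p under 0.05. Kcnc1 averaged 7282 ± 1440.2 in UCMS and 7734 ± 1520.5 in Control mice, a log2 difference of -0.09 (-0.28 to 0.10, 95% interval). Kcnc2 averaged 5854 ± 1219.8 in UCMS and 5643 ± 1080.0 in Control mice (0.05, -0.17 to 0.26), and Kcna2 6943 ± 683 and 6439 ± 1084 (0.12, -0.07 to 0.32). The intervals of the 6 members that were high in PV neurons all lay within 1 log2 unit of 0, with Kcna1 at -0.32 to 0.51, Kcnab2 at -0.42 to 0.26 and Kcnab3 at -0.39 to 0.56. The lower members were measured less closely in PV neurons, with intervals of -0.72 to 2.21 for Kcnc4, -0.28 to 2.26 for Kcna3 and -1.04 to 2.62 for Kcna4.

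In PYR, SST and VIP neurons 0 members were called as well, where 0.0808%, 0% and 0% of all genes were called. The largest difference was that of Kcnc4 in VIP neurons, with lowest, median and highest levels of 107, 352 and 616 in UCMS and 0, 191 and 563 in Control mice. Its log2 difference was 1.5 ± 0.66 (0.21 to 2.80, p = 0.0231 and adjusted p = 0.932 by limma), 8 of 10 UCMS libraries exceeded the Control median, mean levels were 332 ± 155 in UCMS and 211 ± 195 in Control mice, and the difference of means was 0.98 without the library at 0. edgeR on reads gave 0.67, and limma 0.77 without the libraries of fewer than 5000000 reads. It was the 1 member in VIP neurons with an unadjusted p under 0.05, beside 5.15% of all genes. Kcna4 in SST neurons averaged 275 ± 188 in UCMS and 199 ± 164 in Control mice (1.00, -0.21 to 2.21). Kcnc1 stood at -0.27 (-0.56 to 0.03) in SST and -0.28 (-0.57 to 0.02) in VIP neurons.

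Averaged over the types of each mouse, 0 members and 0% of 17427 genes were called, and 2 members, beside 6.97% of all genes, had an unadjusted p under 0.05. Kcnc4 averaged 8.44 ± 0.31 in UCMS and 7.75 ± 0.76 in Control mice on the log2(normalized count + 4) scale, a difference of 0.69 (0.18 to 1.19, p = 0.00809 and adjusted p = 0.627 by limma). Kcnc1 averaged 11.21 ± 0.21 in UCMS and 11.39 ± 0.29 in Control mice, a difference of -0.18 (-0.35 to -0.00301, p = 0.0463 and adjusted p = 0.714 by limma). PV neurons of UCMS mouse U609 were not analysed here, so its mean covers PYR, SST and VIP neurons only. Without this mouse the difference was 0.62 (adjusted p = 0.786) for Kcnc4 and -0.15 (adjusted p = 0.830) for Kcnc1. The median difference over all genes was 0.14 in this comparison. The test of whether the UCMS effect differed between types called 0 members and 0% of genes. Tests on reads called 0 members in any type: edgeR called 0 genes in PV, PYR and SST neurons and 896 in VIP neurons, 836 of them with reads in no more than 4 of the 20 libraries, and DESeq2 called 46 genes in PV, 32 in PYR, 30 in SST and 83 in VIP neurons.

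**Figure D5:**
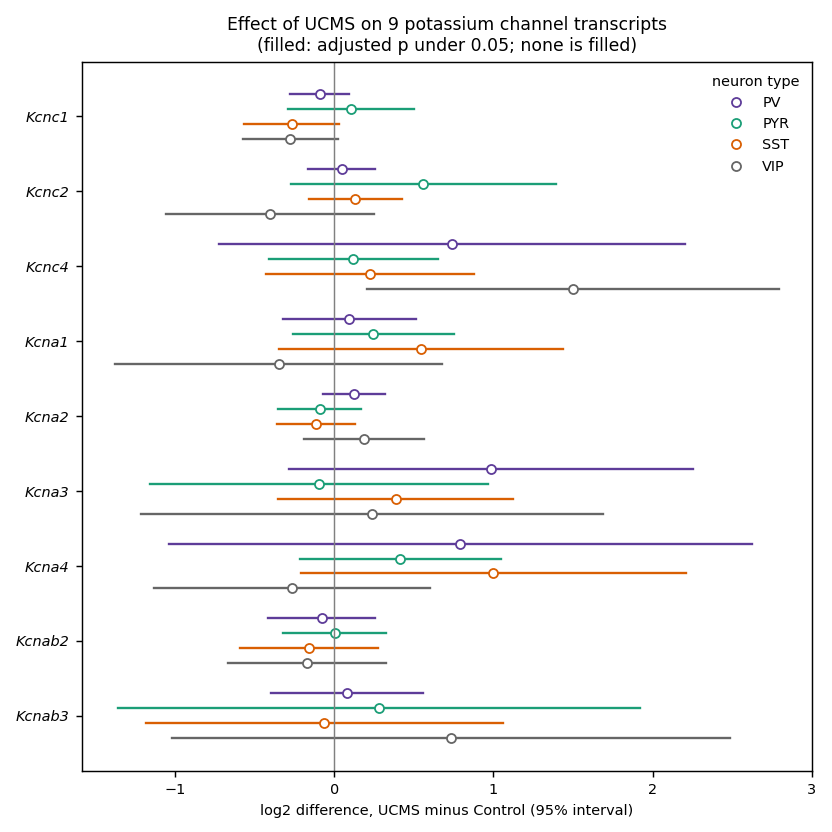
Log2 difference between UCMS and Control mice (x axis) for each member, with 95% intervals, in PV, PYR, SST and VIP neurons. Open points mark an adjusted p of at least 0.05, which holds for every point, and the interval of Kcnc4 in VIP neurons, 0.21 to 2.80, lies right of 0.

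Other genes of the channel families and complexes were tested in the same fit. Kcnab1, which encodes Kv beta 1, was higher in PV neurons by 0.92 in UCMS and 1.45 in Control mice (limma, adjusted p = 0.0406 and 0.00676). Of 12 partners of Kv1 complexes at axons and synapses, 4 were higher and 3 lower in PV neurons of UCMS mice, and 5 higher and 2 lower in those of Control mice. Over all genes, 4.46% were called higher and 6.57% lower in UCMS mice, and 3.65% and 3.7% in Control mice. Lgi2, a secreted synaptic protein, averaged 3180.3 ± 927 in PV neurons of UCMS and 2728 ± 578 of Control mice, against 287 to 847 and 222 to 819.6 in the other types, without overlap (2.85 and 2.75). Epb41l3, a membrane cytoskeleton protein, was higher by 0.98 in UCMS and 0.87 in Control mice, and Cntnap2, which helps to cluster Kv1 channels beside nodes of Ranvier, by 0.71 and 0.63. These levels were not particular to PV neurons. Epb41l3 averaged 2605 in PV and 2216 in SST neurons of UCMS mice, and 2724 and 2671 in Control mice. Cntnap2 averaged 2408 in PV, 1921 in SST, 2173 in VIP and 742 in PYR neurons of UCMS mice. In Control mice these means were 2292, 2216, 2070 and 687. Dlg4, the postsynaptic scaffold PSD-95, stood at -0.45 and -0.35.

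Of 10 genes of Kv2 channels and of the silent subunits that join them, 2 were higher and 2 lower in PV neurons in each arm, beside the same shares of all genes. The median log2 difference of the 10 was -1.23 in UCMS and -0.19 in Control mice, beside -0.18 and -0.08 over all genes. The silent subunit Kcng4 averaged 231 ± 242 in PV neurons of UCMS and 301 ± 259 of Control mice, with reads in 9 of 9 and 9 of 10 libraries, against means of 1.64 to 22.6 and 0 to 0.732 in the other types. The silent subunit Kcns3 averaged 662 ± 225 in PV neurons of UCMS and 473 ± 274 of Control mice, and 280.4 ± 253 and 158 ± 128 in SST neurons, the next highest type. Among the genes called lower were Kcnb2 in UCMS mice (-1.04) and Kcns2 in Control mice (-2.50). None of the genes named from these lists was called between UCMS and Control mice in any type by limma.

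Likeness of pattern was described by Pearson's r of log2 levels over the 79 libraries, among 10983 genes with a mean of at least 50. The libraries share 4 types and 20 mice and differ in depth. Genes most like Kcnc1 included Gad1 (0.87) and Slc38a1 (0.86). Kcnc2 was most like Atp1b1 (0.89), Ank1 (0.88) and Nxph1 (0.88). Genes most like Kcna2 included Cplx1 (0.87) and Slc24a2 (0.87), and Cplx1 was also among those most like Kcnab3 (0.74). Those most like Kcnab2 included Nat8l (0.73) and Scn8a (0.67), and Kcna1 was most like Spats2 (0.72). Kcnc4 reached 0.68 with Clmn and Kcna4 0.65 with Lancl2, and no gene reached 0.6 with Kcna3.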

How the data were processed

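RNA of 79 pools of 130 laser-captured neurons from 20 mice was sequenced with a stranded total-RNA kit for very small inputs, per the labels' protocols. Reads were processed by the authors with HISAT2, SAMtools 1.3 and DESeq2 on GRCm38 (mm10), per the submitters' processing notes. Which counter and annotation were used, and whether strand was, is not given in the sources used here. The deposited values are gene counts divided by size factors (unit signal): after division by what 1 read is worth in its library, 100% of values came out whole within 0.002 reads. Columns without a sample numbered 0. Libraries held 3642579 to 13529571 reads, and the limit of 3 reads for a count of 0 covers counting error only. Intervals of log2 differences came from the limma fits and rest on the spread between libraries.

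Members and gene lists were chosen with earlier results of these data known. Types were compared within each arm, and UCMS with Control within each type, by limma 3.58.1 (trend, robust) in R 4.3.3 on log2(normalized count + 4) of genes averaging 10 or more, and p-values were adjusted over all genes by Benjamini and Hochberg's method (threshold 0.05). Numbers in the labels mark the same mouse across types, so the mouse was a block in comparisons of types. For effects over all types, 1 mean per mouse was used. The alternatives changed the pseudocount (1 or 16), the filter (none, or means of 50 and above) or the scaling (quantiles, or protein-coding reads). Others left out 4 libraries with fewer than 5000000 reads, the block, or each mouse in turn, or fitted edgeR 4.0.16 or DESeq2 1.42.0 to the recovered reads. These 4 libraries were all of VIP neurons, from Control mice U4, U6 and U10 and UCMS mouse U602. Leaving out mouse U609 or the libraries where a member is at 0 was chosen after seeing the data. All members are named. Other genes were named by list, at most 4 per list by the most extreme statistic, and likeness by the 3 highest correlations of at least 0.6. Some genes that these rules select are not reported here. Scripts were tested on simulated data.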

Additional observations from a re-analysis of the deposited data

Results flagged for a closer look

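Of 72 groups of libraries, 12 held a library far from the others for a member. Chance flags about 1 in 20 groups where values are normally distributed. These levels were not log-transformed and every flagged library was high, so no rate by chance is known for them. In VIP neurons Kcnc2 stood at 1231 in UCMS mouse U609, where the next value was 689.8, and at 2156 in Control mouse U3, where the next was 992.8. Kcna3 stood at 657.2 in PV neurons of Control mouse U10 (next 294.5) and at 892.3 in VIP neurons of Control mouse U4 (next 258.1). Kcna4 stood at 825.3 in PYR neurons of UCMS mouse U609 (next 539.9) and at 2762 in VIP neurons of Control mouse U10 (next 801.9).

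Kcnab2 stood at 5520 in PV neurons of Control mouse U3 (next 2720) and at 2261 in PYR neurons of Control mouse U6 (next 1590). Kcnab3 was far from the others in 4 groups. It stood at 289.7 in PYR neurons of UCMS mouse U609 (next 60.06) and at 836.7 in SST neurons of UCMS mouse U602 (next 311.9). It also stood at 2583 in PV neurons of Control mouse U2 (next 1243) and at 376.3 in VIP neurons of Control mouse U9 (next 187.2). Causes of these single values were not tested.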

How the results depend on the processing

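The PV differences of Kcnc1, Kcnc2, Kcna1, Kcna2, Kcnab2 and Kcnab3 from the other types kept their direction and their call in 10 of 10 alternative tests in each arm. Counts of genes called stayed within 1.5 times in 217 of 252 alternatives and counts of members in 245 of 252. DESeq2 called more genes in UCMS and Control mice than limma, with 3262 and 3073 for PV against PYR, 2018 and 1812 for PV against SST, 3333 and 2623 for PV against VIP. It called 3340 and 2771 for PV against the others, 2496 and 2549 for PYR against the others, 2008 and 2207 for SST against PYR, 1573 and 1520 for SST against VIP. It also called 1432 and 1606 for SST against the others, 1745 and 2091 for VIP against PYR, 2255 and 2028 for VIP against the others, in UCMS and Control mice. Between UCMS and Control mice DESeq2 called 46 genes in PV, 32 genes in PYR, 30 genes in SST, 83 genes in VIP neurons. edgeR called 402 genes for PV against SST in Control mice, 756 genes for PV against VIP in Control mice, 312 genes for SST against VIP in Control mice, 0 genes for UCMS against Control in PYR, 896 genes for UCMS against Control in VIP. Without a filter the counts were 333 for SST against VIP in Control mice, 0 for UCMS against Control in PYR, 471 for VIP against PYR in Control mice. With a pseudocount of 1 the counts were 7 for UCMS against Control in PYR. With a mean of at least 50 the counts were 0 for UCMS against Control in PYR. Without the libraries under 5000000 reads the counts were 407 for VIP against the others in Control mice. Members called were 3 for PV against SST in Control mice with edgeR, 1 for SST against VIP in Control mice with libraries of at least 5000000 reads, 2 for SST against the others in Control mice with a pseudocount of 16, 2 for VIP against the others in Control mice with a pseudocount of 16, 2 for VIP against the others in Control mice with quantile normalization, 3 for VIP against the others in Control mice with DESeq2, 2 for VIP against the others in UCMS mice with libraries of at least 5000000 reads. 

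Differences that changed sign were called neither before nor after. With a pseudocount of 16 they were -0.016 for Kcna1 (PYR against the others in Control mice), 0.027 for Kcna3 (PV against PYR in Control mice), 0.068 for Kcna3 (VIP against PYR in Control mice), -0.12 for Kcnab3 (SST against the others in UCMS mice), -0.0058 for Kcnc2 (the mean of types). With a pseudocount of 1 they were 0.088 for Kcna4 (SST against the others in UCMS mice). With edgeR they were -0.087 for Kcna1 (PYR against the others in Control mice), 0.17 for Kcna1 (SST against VIP in Control mice), -0.072 for Kcna1 (UCMS against Control in SST), 0.055 for Kcna1 (UCMS against Control in VIP), 0.20 for Kcna3 (PV against PYR in Control mice), 0.13 for Kcna3 (PV against VIP in Control mice), -0.31 for Kcna3 (UCMS against Control in VIP), 0.064 for Kcna3 (VIP against PYR in Control mice), 0.11 for Kcnab2 (SST against VIP in Control mice), -0.0043 for Kcnab2 (UCMS against Control in PYR), -0.0032 for Kcnab3 (SST against the others in UCMS mice), 0.23 for Kcnab3 (UCMS against Control in SST). With DESeq2 they were -0.18 for Kcna1 (PYR against the others in Control mice), 0.11 for Kcna1 (SST against VIP in Control mice), -0.11 for Kcna1 (UCMS against Control in SST), 0.23 for Kcna3 (PV against PYR in Control mice), 0.069 for Kcna3 (PV against VIP in Control mice), -0.35 for Kcna3 (UCMS against Control in VIP), 0.16 for Kcna3 (VIP against PYR in Control mice), 0.061 for Kcnab2 (SST against VIP in Control mice), -0.025 for Kcnab2 (UCMS against Control in PYR), -0.033 for Kcnab3 (SST against the others in UCMS mice), 0.17 for Kcnab3 (UCMS against Control in SST). With libraries of at least 5000000 reads they were -0.12 for Kcna3 (UCMS against Control in VIP), 0.16 for Kcna3 (VIP against PYR in Control mice), 0.027 for Kcna4 (SST against the others in UCMS mice), -0.11 for Kcnab2 (SST against VIP in UCMS mice), -0.058 for Kcnc2 (the mean of types). With quantile normalization they were 0.022 for Kcna2 (the mean of types), 0.15 for Kcna3 (PV against PYR in Control mice), 0.36 for Kcna3 (PV against VIP in Control mice), 0.038 for Kcnab2 (SST against VIP in Control mice), -0.042 for Kcnab3 (the mean of types). With scaling to protein-coding reads they were 0.0054 for Kcna2 (the mean of types), 0.028 for Kcnab2 (SST against VIP in Control mice). With mouse U609 left out they were 0.011 for Kcna2 (the mean of types). 

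Leaving out 1 mouse at a time gave -0.095 to 0.23 for Kcna1 (PYR against the others in Control mice), -0.14 to 0.0034 for Kcnab2 (PYR against the others in Control mice), -0.64 to 0.043 for Kcna3 (PYR against the others in Control mice), -0.086 to 0.31 for Kcna1 (PYR against the others in UCMS mice), -0.0067 to 0.091 for Kcnab2 (PYR against the others in UCMS mice), -0.36 to 0.18 for Kcna4 (SST against the others in UCMS mice). It gave -0.24 to 0.31 for Kcnab3 (SST against the others in UCMS mice), 0 to 1 genes called for UCMS against Control in PV, 2 to 14 genes called for UCMS against Control in PYR, -0.92 to 0.19 for Kcna3 (VIP against the others in Control mice), 1 to 3 members called for VIP against the others in Control mice, 2 to 4 members called for VIP against the others in UCMS mice. Without the mouse as a block, Kcna1 in VIP neurons of UCMS mice stood at -1.42 against the others and lost its call (limma, adjusted p = 0.0587), and no other member's call changed. Causes of these changes were not tested. In PV neurons the intervals of the UCMS effect on Kcnc4, Kcna3 and Kcna4 reached past 1 log2 unit. An effect of that size is not excluded for them there.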
